A study of Homo sapiens with 6 samples.

Results

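FABP1, the liver fatty acid binding protein, was examined together with 7 genes of fatty acid oxidation and storage, CPT1A, CPT2, ACADM, HADHA, PDK4, PLIN2 and ACSL1. These 8 genes were chosen by name from the 20030 genes of the deposited table. FABP1 was picked for its very large fall in the comparison described here, so its values are given as a description with no test. The other 7 were listed for their place in fatty acid handling and as targets of the nuclear receptor PPAR alpha.

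The cells were HepG2, an established human hepatoma line, and all of them had been infected with lentivirus and selected with puromycin. The sh-ctrl group carried a control shRNA (3 libraries), and the sh-KIF11 group carried shRNA against KIF11, the mitotic kinesin Eg5 (3 libraries). An shRNA is a hairpin RNA that directs the cell to degrade a matching mRNA. The labels do not say how many hairpins were used, so an effect of losing KIF11 cannot be told apart from an effect of a hairpin itself. Poly(A) RNA was sequenced, and nothing in the sample labels says that the 3 libraries of a group came from separate cultures, so the p-values measure the spread between these libraries only.

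Fatty acids that enter a hepatocyte are carried through the cytosol by FABP1 and are joined to coenzyme A by ACSL enzymes. The acyl group is then passed through the mitochondrial membranes by the carnitine shuttle and is shortened in turns of beta-oxidation, or is stored in lipid droplets. PPAR alpha, which binds DNA as a pair with RXR and is activated by fatty acids, switches on many of these genes in the liver.

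Depth ranged from 18167773 to 19583282 counts per library, and 12369 genes had enough counts to be tested. KIF11 itself had 110.8, 115.7 and 120.8 CPM (counts scaled to library size with TMM factors) with sh-ctrl and 72.2, 71.4 and 62.9 CPM with sh-KIF11, a log2 fold change of -0.75 (SE 0.0573, adjusted p = 4.22e-15). The summed level of 11 hepatocyte markers, all of them present, was 9220 to 9740 FPKM (fragments scaled to transcript length and to library size) with sh-ctrl and 3700 to 4000 FPKM with sh-KIF11. The adipocyte markers LEP, FABP4 and LPL and the enterocyte markers SI and CDX1 had no counts in any library. The summed levels of the 6 adipocyte markers were 2.11 to 2.48 FPKM with sh-ctrl and 2.02 to 3.12 FPKM with sh-KIF11. Those of the 8 enterocyte markers were 121 to 136 and 90.1 to 94.8 FPKM, nearly all from VIL1 and ANPEP, and those of the 6 leukocyte and endothelial markers 23.9 to 26.9 and 14.4 to 15.8 FPKM, mostly CD68. The 7 fibroblast and stellate markers, with DCN at 0, summed to 28.0 to 28.8 FPKM with sh-ctrl and 65.7 to 70.9 FPKM with sh-KIF11, nearly all of it ACTA2. The 5 cholangiocyte markers summed to 244 to 256 and 504 to 587 FPKM, and KRT19 was the member behind the higher sum. Whether these shifts in marker genes had a part in the changes of the 8 genes was not tested. In such bulk libraries fewer cells of a type and less RNA per cell cannot be told apart.

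The bases before the start sites of FABP1, PDK4 and PLIN2 are shown because these genes had the largest changes among the 8, and because the factors that are known to act at the FABP1 promoter were measured in the same libraries. All 8 genes had an entry in the RefSeq promoter table of GRCh38.p14, and the 250 bases before each start site were searched on both strands. Each stretch below is written from 5′ to 3′ on the strand of the gene and leaves out bases inside exons annotated by GENCODE 29, and capitals mark the searched motifs. The FABP1 stretch is chr2:88128117-88128312 (minus strand, 250 to 55 bases before the start site), the PDK4 stretch is chr7:95596517-95596681 (minus strand, 165 to 1 bases before), and the PLIN2 stretch is chr9:19127577-19127742 (minus strand, 250 to 85 bases before).
FABP1: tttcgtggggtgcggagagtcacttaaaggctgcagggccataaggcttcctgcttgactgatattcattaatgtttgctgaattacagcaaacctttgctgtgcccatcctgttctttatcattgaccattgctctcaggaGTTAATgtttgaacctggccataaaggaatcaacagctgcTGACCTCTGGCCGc
PDK4: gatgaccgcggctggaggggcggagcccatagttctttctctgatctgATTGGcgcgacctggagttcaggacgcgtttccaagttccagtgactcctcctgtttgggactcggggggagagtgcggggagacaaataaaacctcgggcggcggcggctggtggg
PLIN2: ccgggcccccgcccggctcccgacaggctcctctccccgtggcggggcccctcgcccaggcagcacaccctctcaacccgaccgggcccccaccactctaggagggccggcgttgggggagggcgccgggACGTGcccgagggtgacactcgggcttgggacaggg

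The FABP1 window held 4 matches. GTTAAT, a motif of homeodomain type, lay 108 to 103 bases before the start and occurred in 6.23% of all 35116 promoters of the table. The hexamer AGGTCA of nuclear receptors lay on the other strand 68 to 63 bases before the start (12.1% of all promoters), inside a DR1 element of PPAR and HNF4 type, AGGTCANAGGTCA with up to 2 mismatches, at 68 to 56 bases (2.57% of all promoters). TATAAA lay 31 to 26 bases before the start (10.7% of all promoters), outside the printed stretch. Among the other 7 genes, PLIN2 held ACGTG 3 times, of which 1 lies in the printed stretch. The other matches are the 2 strands of a single CACGTG, 69 to 64 bases before the start. ACGTG is the core of hypoxia response elements (18.5% of all promoters). PLIN2 also held TATAAA on the other strand, PDK4 held CCAAT on the other strand at 117 to 113 bases, and 1 of the 5 start sites listed for ACSL1 held CCAAT and a DR1 match (CCAAT was in 32.0% of all promoters). No searched motif was found in the windows of CPT1A, CPT2, ACADM or HADHA. These matches describe letters only, and no binding was measured.

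FABP1 was the most abundant of the 8 genes in sh-ctrl cells and lost most of its mRNA in sh-KIF11 cells. The gene lies on chromosome 2 from 88122982 to 88128116 on the minus strand (GRCh38) and overlaps no other annotated gene. Its level was 329.4, 405.5 and 404.2 FPKM in the sh-ctrl libraries and 36.5, 24.2 and 27.0 FPKM in the sh-KIF11 libraries. Every sh-KIF11 library was far below every sh-ctrl library. In normalised counts the mean went from 305.3 ± 38.7 CPM (SD, n = 3) to 20.4 ± 4.18 CPM (SD, n = 3), which is 15.0-fold lower, a log2 fold change of -3.90 (SE 0.0845). BPIFB2, at -4.96, was the only tested gene with a lower log2 fold change. Leaving out any single library gave log2 fold changes between -4.09 and -3.80. FABP1 ranked 116 of 14845 genes with any FPKM under sh-ctrl and 1889 of 15626 under sh-KIF11, so its message was reduced and still well detected.

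FABP1 also varied more between libraries of the same group than most genes of its level. The SD of its log2 CPM was 0.19 in sh-ctrl, above 99.5% of the 200 tested genes nearest in level, whose median SD was 0.0608. In sh-KIF11 its SD was 0.283, above 99.0% of the 200 nearest genes, with a median of 0.0804. Its coefficient of variation in sh-ctrl was 12.7%, against 1.37% from counting alone. The library numbered 1 stood apart in each group, with 4650 counts against 5863 and 5575 with sh-ctrl and with 505 counts against 360 and 367 with sh-KIF11.

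**Figure D1:**
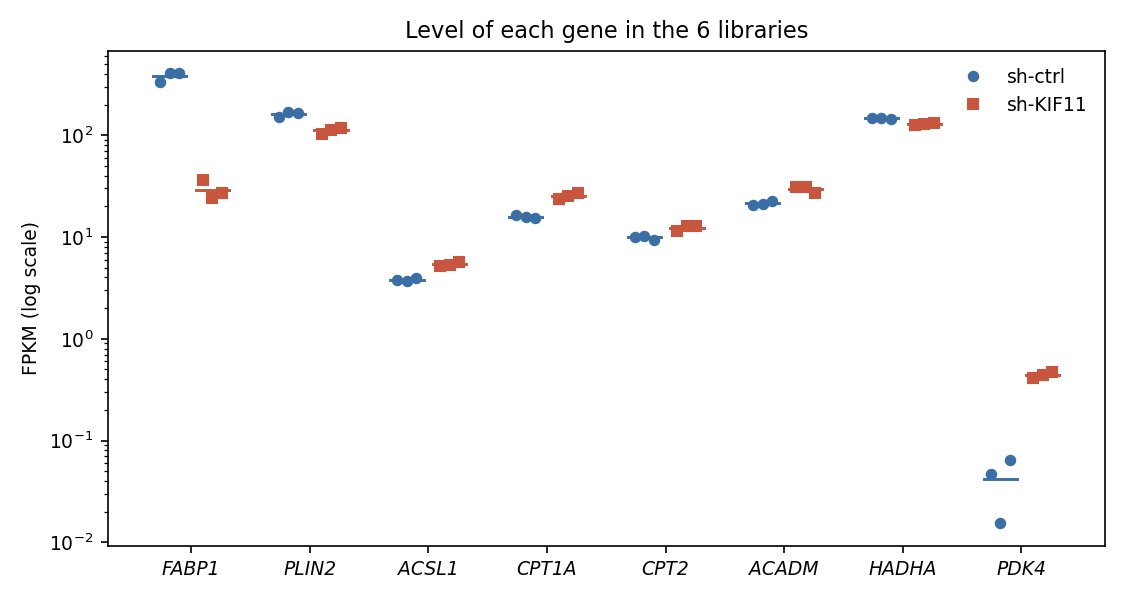
Level of each of the 8 genes in FPKM on a log axis, with circles for the 3 sh-ctrl libraries, squares for the 3 sh-KIF11 libraries and a line at each group mean. FABP1 drops from 329.4 to 405.5 FPKM in sh-ctrl to 24.2 to 36.5 FPKM in sh-KIF11, whereas HADHA and PLIN2 stay within the same order of magnitude and PDK4 stays below 0.5 FPKM.

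The carrier family was left with FABP5 as its main message. FABP5, the epidermal type fatty acid binding protein, was at 64.3 ± 2.94 FPKM with sh-ctrl and 79.9 ± 3.93 FPKM with sh-KIF11 (SD, n = 3 each), with a log2 fold change of 0.13 that did not pass the test (adjusted p = 0.0692). Its adjusted p was between 3.73e-06 and 0.292 under the alternatives, and it passed without sh-ctrl replicate 3 (adjusted p = 0.0145). FABP5 has processed pseudogenes, and how reads shared with them were counted is not given in the sources used here. The ratio of FABP1 to FABP5 within each library was 5.34, 6.38 and 5.99 with sh-ctrl and 0.463, 0.316 and 0.320 with sh-KIF11. FABP1 made up 85.4% ± 1.13 of the summed FPKM of the family with sh-ctrl and 26.5% ± 4.32 with sh-KIF11 (SD, n = 3 each), while FABP5 went from 14.5% to 73.1%. The summed level of the 10 family genes was 444.2 ± 45.9 FPKM with sh-ctrl and 109.5 ± 7.44 FPKM with sh-KIF11. FABP2, the intestinal form, was the only other tested family gene and had 7 to 22 counts per library, and the other 7 carriers, with FABP4 at 0 counts, were not tested.

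The other 7 genes went in both directions, and all of them but PDK4 changed far less than FABP1. PDK4 was higher with sh-KIF11, but it passed the filter on low counts through the sh-KIF11 libraries alone and is left out of the counts that follow. Of the other 6, 5 were called at an adjusted p under 0.05, against 69.1% of all tested genes, so that a call by itself sets none of them apart. The 3 of these that rose were CPT1A, ACSL1 and ACADM, beside 34.4% of all tested genes called higher, and the 2 that fell were PLIN2 and HADHA, beside 34.7% called lower. CPT2 was not called. For none of the 6 did the libraries of the groups share a range of CPM, as for 71.2% of all tested genes. None of the 6 passed a 2-fold change, and their median log2 fold change was 0.23, beside 0.00 over all tested genes, with quartiles of -0.31 and 0.36. The median over all genes was 0.24 with library totals alone and 0.12 on the log2(FPKM + 1) scale, and 73.6% and 68.5% of the calls were then higher, against 49.8% with TMM. The sizes below therefore depend on the scaling, while the directions of the 7 did not change with it.

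**Figure D2:**
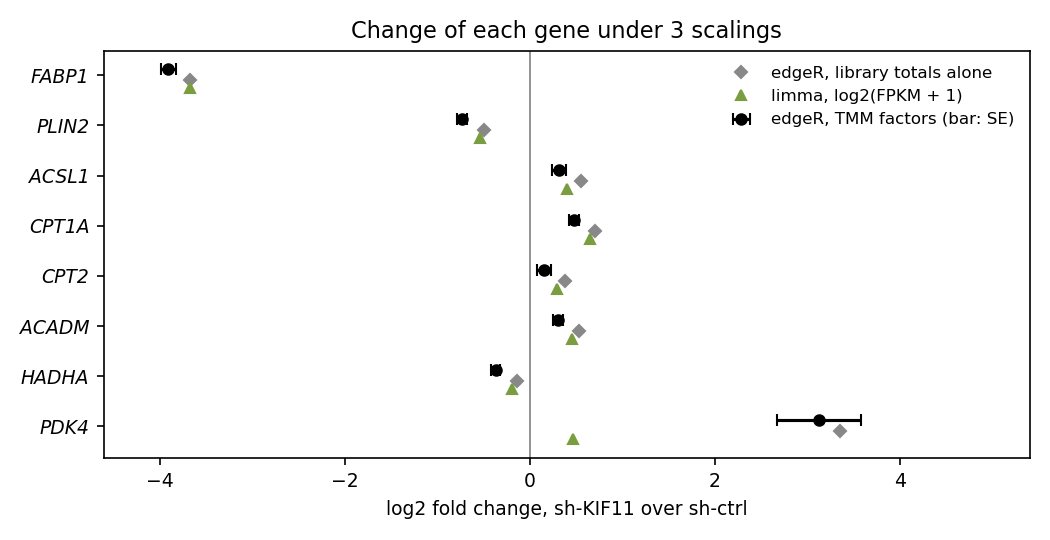
Log2 fold change of each of the 8 genes, sh-KIF11 over sh-ctrl, with black circles for edgeR with TMM factors (bar, SE), grey diamonds for edgeR with library totals alone and triangles for limma on log2(FPKM + 1). FABP1 lies at -3.90, -3.67 and -3.67, the signs of all 8 genes are the same under the 3 scalings, and PDK4 falls from 3.12 to 0.47 on the log2(FPKM + 1) scale where its level is far below the added 1 FPKM.

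ACSL1, a long-chain acyl-CoA synthetase that activates fatty acids for further use, rose modestly. The gene lies on chromosome 4 from 184755595 to 184826818 (minus strand). Its level was 3.78, 3.73 and 3.94 FPKM with sh-ctrl and 5.23, 5.28 and 5.63 FPKM with sh-KIF11, with no overlap between the groups. The log2 fold change was 0.32 (SE 0.0768, adjusted p = 0.000363). ACSL1 was a minor synthetase of these cells, at 2.25% ± 0.0967 of the summed ACSL message with sh-ctrl and 4.04% ± 0.164 with sh-KIF11 (SD, n = 3 each). ACSL4, which prefers arachidonic acid, and ACSL3, an enzyme of the endoplasmic reticulum and lipid droplets, made up most of it and fell, with log2 fold changes of -0.75 and -0.86. ACSL5 rose (log2 fold change 0.48), and its share went from 14.3% to 28.4%. The sum of the 5 ACSL messages was 169.9 ± 5.17 FPKM with sh-ctrl and 133.2 ± 2.16 FPKM with sh-KIF11.

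Upstream of and around ACSL1, most genes of uptake and activation fell. Of 25 listed genes 21 were tested, of which 15 were called lower and 4 higher, with a median log2 fold change of -0.41 beside 0.00 over all tested genes. Over all tested genes 34.7% were called lower and 34.4% higher. With library totals alone 11 were called, against 19. The 4 higher genes were CD36, ACSL5, ACSL1 and ACBD3. CD36, a fatty acid translocase, had the largest change of the list, with 29, 29 and 39 counts with sh-ctrl and 160, 146 and 173 counts with sh-KIF11 (4.30-fold higher, log2 SE 0.184, adjusted p = 2.59e-13), at 1.31 FPKM or less on average. The next largest changes were those of ACSM2A (-1.43) and ACSM5 (-1.21), medium-chain synthetases that were below 1 FPKM. The groups overlapped for ACSM2A, with 20, 23 and 7 counts against 11, 5 and 5, and its call was lost in 3 of 14 alternatives (largest adjusted p = 0.227). ACSM5, with 23, 22 and 16 counts against 12, 12 and 6, passed the filter on low counts through the sh-ctrl libraries alone. DBI, the acyl-CoA binding protein, fell with a log2 fold change of -0.93 from 89.8 to 54.4 FPKM.

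CPT1A, the liver isoform of the outer mitochondrial carnitine palmitoyltransferase and the rate-controlling step of the entry of long-chain fatty acids, rose. The gene lies on chromosome 11 from 68754620 to 68844410 (minus strand). It had 16.4, 15.6 and 15.2 FPKM with sh-ctrl and 23.5, 25.2 and 26.9 FPKM with sh-KIF11. All sh-KIF11 libraries lay above all sh-ctrl libraries, and the log2 fold change was 0.48 (SE 0.0534, adjusted p = 2.14e-10). CPT1A accounted for 88.9% of the CPT1 message with sh-ctrl and 86.4% with sh-KIF11. CPT1B, the muscle isoform, also rose (log2 fold change 0.77) and was at 1.95 ± 0.2 and 3.92 ± 0.187 FPKM (SD, n = 3 each), and CPT1C was not tested.

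CPT2, the inner membrane enzyme that restores acyl-CoA in the matrix, moved less. It had 10.1, 10.3 and 9.33 FPKM with sh-ctrl and 11.5, 12.8 and 12.8 FPKM with sh-KIF11. In CPM the groups were barely apart, at 33.3 to 36.46 with sh-ctrl and 36.48 to 41.0 with sh-KIF11. The log2 fold change was 0.15 (SE 0.0739), and the adjusted p of 0.0628 missed the threshold. It passed in 6 of 15 alternatives, among them the FPKM table (adjusted p = 0.00164 on log2(FPKM + 1)) and the fit without sh-KIF11 replicate 1 (adjusted p = 0.033), and the largest adjusted p was 0.236. CPT2 lies on chromosome 1 from 53196429 to 53214197 (plus strand), where it overlaps C1orf123 and an antisense gene on the opposite strand, and the strand setting of the counting is not given in the sources used here.

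Against CPT2, the level of CPT1A was higher in every sh-KIF11 library than in any sh-ctrl library. The ratio of CPT1A to CPT2 in FPKM was 1.63, 1.52 and 1.63 with sh-ctrl and 2.04, 1.97 and 2.11 with sh-KIF11. A ratio within a library does not depend on the scaling between libraries, and its mean went from 1.59 ± 0.0658 to 2.04 ± 0.0678 (SD, n = 3 each, two-sided exact permutation p = 0.1, the smallest that 3 against 3 allows). Among the 7 tested genes of the shuttle 3 were called higher and 1 lower (median 0.15), beside 34.4% and 34.7% of all tested genes. CROT, the peroxisomal carnitine octanoyltransferase, rose (0.66) and CRAT, the carnitine acetyltransferase, fell (-0.46), while SLC25A20, the carnitine-acylcarnitine carrier, had a log2 fold change of 0.14 (adjusted p = 0.159).

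ACADM, the medium-chain acyl-CoA dehydrogenase of the first step of beta-oxidation, rose. Its level was 20.6, 21.1 and 22.5 FPKM with sh-ctrl and 30.9, 31.1 and 27.0 FPKM with sh-KIF11, with no overlap. The log2 fold change was 0.30 (SE 0.0579, adjusted p = 1.35e-05). In sh-KIF11 the spread of ACADM was above 97.5% of the 200 genes nearest in level, with sh-KIF11 replicate 3 below the other pair. The gene, on chromosome 1 from 75724347 to 75787575 (plus strand), overlaps RABGGTB on the same strand, and reads from the shared bases could have been given to either gene. ACADVL, the very-long-chain enzyme, and ACADS, the short-chain enzyme, fell, with log2 fold changes of -0.41 and -0.98.

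HADHA, the alpha subunit of the mitochondrial trifunctional protein, lies on chromosome 2 from 26190635 to 26244726 (minus strand) and fell. It had 147.8, 148.3 and 144.8 FPKM with sh-ctrl and 124.4, 129.1 and 132.7 FPKM with sh-KIF11. The groups did not overlap, and the log2 fold change was -0.37 (SE 0.0471, adjusted p = 4.94e-09), or -0.14 with library totals alone (adjusted p = 0.00823). HADHB, the beta subunit of the same complex, lies head to head with HADHA from 26243170 to 26290468 (plus strand), and the gene bodies overlap. HADHB had 66.4, 67.6 and 75.3 FPKM with sh-ctrl and 73.1, 77.6 and 75.6 FPKM with sh-KIF11, which overlapped. Its log2 fold change was -0.04 (adjusted p = 0.51), and it was 0.19 with library totals alone (adjusted p = 0.00107).

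The ratio between the subunits was lower in every sh-KIF11 library than in any sh-ctrl library. The ratio of HADHA to HADHB in FPKM was 2.23, 2.19 and 1.92 with sh-ctrl and 1.70, 1.66 and 1.76 with sh-KIF11. Its mean went from 2.12 ± 0.166 to 1.71 ± 0.0466 (SD, n = 3 each, two-sided exact permutation p = 0.1, again the lowest value possible). The lowest sh-ctrl ratio was that of replicate 3, which was closer to the sh-KIF11 libraries than to the other sh-ctrl pair. Since reads of overlapping genes cannot be assigned without the strand, the ratio also depends on how the overlap was counted.

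HADHA moved with most of the mitochondrial beta-oxidation genes, while ACADM did not. Of 21 listed genes 20 were tested, with 13 called lower, HADHA among them, and 3 higher, and a median log2 fold change of -0.39. Over all tested genes 34.7% were called lower and 34.4% higher. The largest changes were those of ETFB (-1.12), a subunit of the flavoprotein that takes electrons from the acyl-CoA dehydrogenases, ACADS (-0.98) and HADH (-0.80), the short-chain hydroxyacyl-CoA dehydrogenase. ETFB went from 182.0 ± 7.91 to 97.2 ± 2.69 FPKM (SD, n = 3 each). The 3 higher genes were ACADM, ACAD10 and ACAD11. In the peroxisome 10 of 15 tested genes were lower and 4 higher (median -0.29), with the largest changes in PEX11A (-1.32), ACAA1 (-0.82) and ECH1 (-0.78). Leaving out sh-ctrl replicate 2 lowered the calls of this list from 14 to 9.

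PDK4, the kinase that inhibits pyruvate dehydrogenase and so spares glucose when fats are burned, was almost silent in sh-ctrl cells and low in sh-KIF11 cells. It lies on chromosome 7 from 95583499 to 95596491 (minus strand). It had 3, 1 and 5 counts with sh-ctrl and 27, 32 and 34 counts with sh-KIF11. No sh-ctrl library came near the sh-KIF11 libraries, but the levels were only 0.0424 ± 0.0249 and 0.439 ± 0.0304 FPKM (SD, n = 3 each). The log2 fold change was 3.12 (SE 0.458), given as a description. The summed counts of 9 and 93 gave a ratio of 9.01 with a 95% interval of 4.55 to 20.3, which covers counting error only. Given the filter on low counts, PDK4 could not have been tested without being higher with sh-KIF11, and it was not tested where 10 counts were required in every library.

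PDK4 stayed the scarcest of the 4 kinases in each group. PDK1, the kinase known to respond to hypoxia, made up 55.1% of the PDK message with sh-ctrl and 43.3% with sh-KIF11 and fell (log2 fold change -0.94). PDK3 fell as well (-0.49), and PDK2 had a log2 fold change of -0.23 (adjusted p = 0.0381) that was lost in 9 of 15 alternatives. PDK4 itself went from 0.389% ± 0.231 to 5.13% ± 0.358 of the PDK message (SD, n = 3 each), and the 4 kinases summed to 11.2 ± 1.41 and 8.55 ± 0.18 FPKM. Without PDK4, 11 genes of pyruvate dehydrogenase and its regulators were tested, with 3 called higher and 6 lower (median -0.23, or -0.15 with PDK4). Over all tested genes 34.4% were called higher and 34.7% lower. The largest change of these 11 was a rise of PDP1 (1.14), a phosphatase that opposes the kinases. Of the 6 tested ketone body genes 1 was called higher, BDH2 (0.33), and 2 lower, beside 34.4% and 34.7% of all tested genes. ACAT1 (-0.19, lost in 4 of 15 alternatives) was among the lower genes, and the median was -0.09.

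PLIN2, the coat protein found on lipid droplets of most cells, lies on chromosome 9 from 19108375 to 19149290 (minus strand) and fell. Its level was 151.1, 168.5 and 165.3 FPKM with sh-ctrl and 102.4, 113.4 and 118.0 FPKM with sh-KIF11. Every sh-KIF11 library was below every sh-ctrl library, and the log2 fold change was -0.73 (SE 0.0527, adjusted p = 6.8e-16). PLIN2 remained the main perilipin, at 75.4% ± 1.82 of the PLIN message with sh-ctrl and 65.2% ± 1.66 with sh-KIF11. PLIN3, a perilipin of nascent droplets, had a log2 fold change of -0.05 (adjusted p = 0.388), and its sign turned with the scaling (0.18 with library totals alone, adjusted p = 0.00209). Of the 13 other tested genes of droplets and lipolysis 8 were called lower, beside 34.7% of all tested genes, and 5 were not called, with a median of -0.54 (-0.61 with PLIN2). The largest changes were those of CIDEB (-1.52), PLIN5 (-1.49) and FITM1 (-0.92). PLIN5, with 19, 20 and 13 counts against 8, 11 and 2, passed the filter on low counts through the sh-ctrl libraries alone. FITM1 overlapped between the groups, with 19, 46 and 28 counts against 15, 23 and 18, and lost its call in 4 of 15 alternatives (largest adjusted p = 0.265). CIDEB, a protein of droplets and lipoprotein loading in hepatocytes, had 482, 539 and 496 counts with sh-ctrl and 170, 211 and 226 counts with sh-KIF11. PNPLA2, the main triglyceride lipase, and DGAT1, an enzyme of triglyceride synthesis, had log2 fold changes of -0.47 and -0.71.

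**Figure D3:**
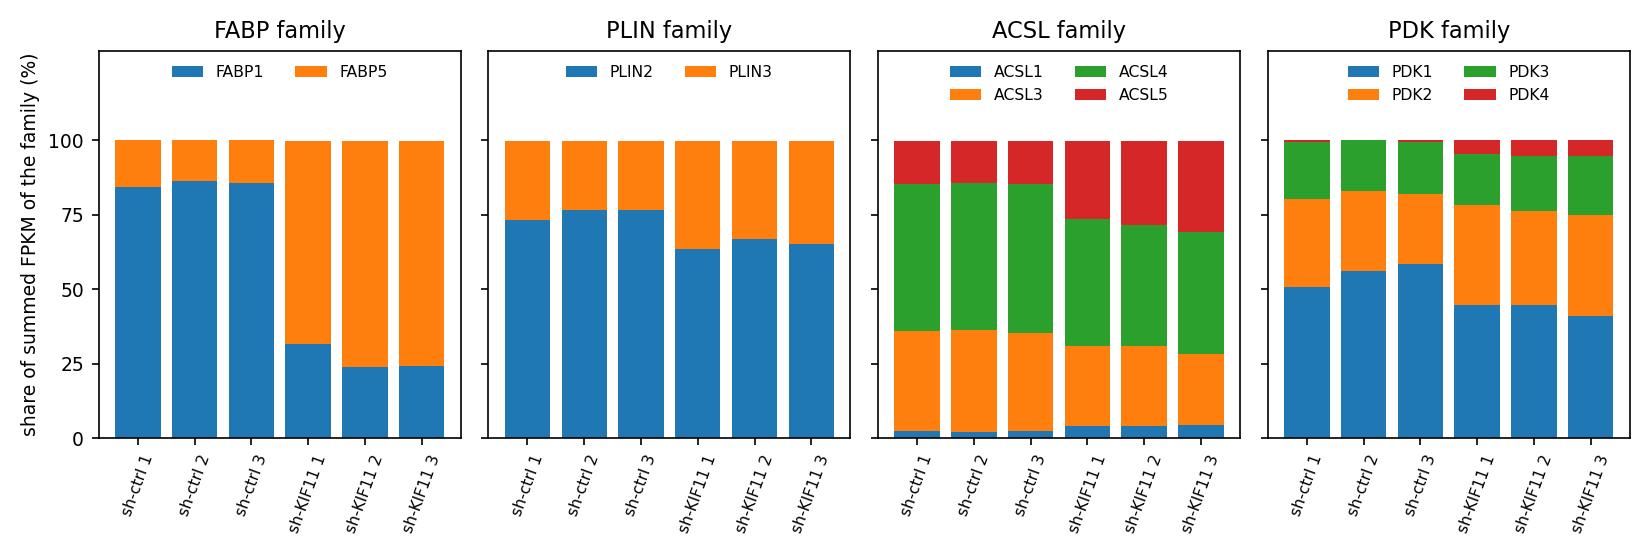
Share of each gene in the summed FPKM of its family, in percent, as stacked bars for the 6 libraries, with genes under 0.4% of the sum in both groups left out. FABP1 makes up 84.2% to 86.4% of its family with sh-ctrl and 23.9% to 31.5% with sh-KIF11, whereas PLIN2 stays the larger part of its family and PDK4 and ACSL1 stay small parts of theirs.

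The order of the 8 levels changed mainly through FABP1. In sh-ctrl the order by FPKM was FABP1, PLIN2, HADHA, ACADM, CPT1A, CPT2, ACSL1 and PDK4, and no neighbours in this order overlapped between libraries, although PLIN2 and HADHA were close (lowest PLIN2 library 151.1 FPKM, highest HADHA library 148.3 FPKM). In sh-KIF11 HADHA came first, followed by PLIN2, ACADM, FABP1, CPT1A, CPT2, ACSL1 and PDK4. FABP1 overlapped there with ACADM above it and with CPT1A below it, so that FABP1 did not differ from either beyond the spread, while every ACADM library lay above every CPT1A library.

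The known regulators of these genes were measured in the same libraries. PPARA, which encodes PPAR alpha, and RXRA, its partner receptor, fell, with log2 fold changes of -0.92 and -1.09, and PPARA was at 4.20 ± 0.221 FPKM with sh-ctrl and 2.44 ± 0.3 FPKM with sh-KIF11 (SD, n = 3 each). PPARGC1A, a coactivator of oxidative genes, fell as well (-1.21). Of the 18 tested receptors, partners and coregulators 9 were called higher and 6 lower (median 0.06), and NRIP1 (0.64) and NCOA1 (0.56) were among the higher genes. Over all tested genes 34.4% were called higher and 34.7% lower. Among the 13 liver factors that act at the FABP1 promoter 12 were called lower, with a median of -0.56 beside 0.00 over all tested genes (with library totals alone 11 were called in either direction, and the median was -0.33). NR1H4, the bile acid receptor FXR, had the largest change (-1.45), followed by RXRA (-1.09) and FOXA3 (-0.93). HNF4A had a log2 fold change of -0.47 (35.4 to 28.7 FPKM). FOXA1, which opens chromatin for other factors, was the factor not called (-0.07, adjusted p = 0.223), and with library totals alone it was called higher (0.16, adjusted p = 0.00617).

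PPAR alpha targets beyond the 8 genes went both ways. Of 30 listed targets 25 were tested, with 14 called lower and 7 higher, beside 34.7% and 34.4% of all tested genes, and a median of -0.41. VNN1, the pantetheinase vanin, rose most, from 83, 60 and 72 counts in sh-ctrl to 670, 715 and 810 counts in sh-KIF11 (log2 fold change 3.15, SE 0.113, adjusted p = 4.53e-26). CD36 rose too, and APOA1, the main protein of high density lipoprotein, fell (-1.92). ANGPTL4, an inhibitor of lipoprotein lipase, had a log2 fold change of -1.28 (adjusted p = 0.0038) at 0.524 FPKM or less on average. Its groups overlapped, with 16, 44 and 17 counts against 7, 19 and 10, and without sh-ctrl replicate 2 the call was lost (adjusted p = 0.187). ANGPTL4 also passed the filter on low counts through the sh-ctrl libraries alone.

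**Figure D4:**
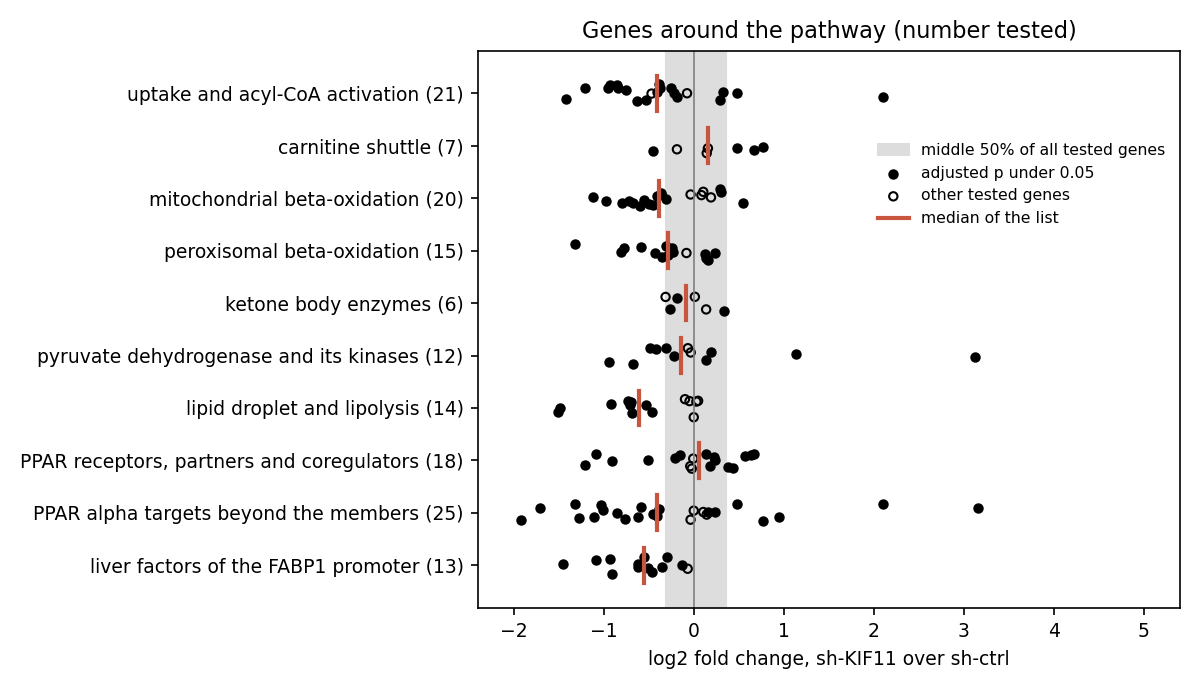
Log2 fold change, sh-KIF11 over sh-ctrl, of each tested gene in 10 lists (FABP1 left out), with filled points for an adjusted p under 0.05, open points for other genes, a red line at the median of each list and a grey band over the middle 50% of all tested genes. The medians of uptake and activation (-0.41), mitochondrial beta-oxidation (-0.39), lipid droplets (-0.61), PPAR alpha targets (-0.41) and liver factors (-0.56) lie below the band. That of the carnitine shuttle (0.15) lies inside it.

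The genes most like FABP1 over the 6 libraries were sought among 9391 tested genes whose mean level was 10 CPM or more, by the root mean square difference of log2 CPM after each gene was centred on its own mean. PGC, the pepsinogen progastricsin, came first with a difference of 0.365 on the log2 scale and a log2 fold change of -3.22. The next were SLC6A14, an amino acid transporter (0.392), and, further down the same 5, BPIFB2 (0.514) and AGXT, a peroxisomal aminotransferase of the liver (0.563). All 6 libraries are those of the comparison for which FABP1 was picked, so this likeness is a description.

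None of the nearest listed genes of FABP1 on chromosome 2, 3 on each side, fell to a like extent. SMYD1, 9.6 kb away, and THNSL2, 42.3 kb away on the other side, had no counts in any library, and neither had FOXI3. KRCC1, at 67.2 kb, rose from 55, 63 and 65 counts in sh-ctrl to 170, 193 and 176 counts in sh-KIF11 (log2 fold change 1.36, adjusted p = 1.48e-10). EIF2AK3, an endoplasmic reticulum stress kinase at 429 kb, fell with a log2 fold change of -0.40 (adjusted p = 5.65e-06). RGPD2, at 133 kb, was too low to be tested and belongs to a family of near-identical copies.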

How the data were processed

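mRNA of 6 HepG2 libraries was measured, 3 of sh-ctrl and 3 of sh-KIF11, with group and replicate number taken from the sample titles. The labels give no batch. In the deposited data the knockdown columns are named only as shRNA and were taken as sh-KIF11, since the labels mention no other target. RNA was prepared with a stranded poly(A) kit. The authors deposited raw counts per gene, not normalised, and a table of FPKM, which they had adjusted for transcript length and for library size. The submitters' processing notes name Trimmomatic, HISAT2 2.1.0, HTSeq 0.9.1, Cufflinks 2.2.1, DESeq and GRCh38 without saying which step each served, and the strand setting is not given in the sources used here.

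Counts were tested in R 4.3.3 with edgeR 4.0.16 (quasi-likelihood test, TMM factors, filterByExpr, group as the only term, two-sided), with Benjamini-Hochberg adjustment over all 12369 tested genes and a threshold of 0.05. The filter left out 7661 genes. SE and fold changes come from this fit, and CPM used the TMM factors, with a prior count of 2 for log2 CPM. Levels between genes were compared in FPKM. A library's limit for a count of 0 is 3 counts. The alternatives were RLE and upper-quartile factors, library totals alone, no filter, a minimum of 10 counts in each library, a replicate block, DESeq2 1.42.0, limma 3.58.1 on log2(FPKM + 1) and log2(FPKM + 0.1), and each library left out. The procedures were tested on simulated counts.

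The members and the gene lists were chosen with earlier results of these data known. FABP1 got no test and was left out of every list count. Named were the 8 genes, KIF11, the 3 genes with the largest change among those called in each list, fixed partner genes, the 3 nearest genes on each side of FABP1 and the 5 genes most like it. Some of these genes are not reported here, although list counts and medians include them. Any further gene was picked with its values in view. Same-numbered libraries did not deviate together (correlations of 0.0744, -0.0574 and 0.0135), so the numbers were not taken as pairs. Promoter bases came from RefSeq (GRCh38.p14), and gene coordinates and exons from GENCODE 29 (GRCh38), the build the notes name. The annotation that the authors counted with is not given in the sources used here.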

Additional observations from a re-analysis of the deposited data

How the results depend on the processing

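With library totals alone 6621 genes were called higher and 2373 lower, and the lower calls numbered 2596 with limma on log2(FPKM + 1) and 2597 on log2(FPKM + 0.1), where the tests with TMM factors gave 4254 and 4294. The share of calls that were higher was 73.6% with library totals, 68.5% with log2(FPKM + 1), 58.5% with upper-quartile factors and 49.8% with TMM. Under all 15 alternatives the 7 genes besides FABP1 kept their direction wherever they were tested and 6 or 7 were called, with CPT2 gained in some and PDK4 not tested with the 10-count filter, and FABP1 lay between -4.09 and -3.67. PDK4 is counted among these calls wherever it was tested, although in the main fit it passed the filter through the sh-KIF11 libraries alone. Of the carriers besides FABP1, FABP2 and FABP5 were tested, and 1 was called with upper-quartile factors, library totals and the 10-count filter, 2 with each FPKM fit, and 0 to 1 with a library left out. Calls in uptake and activation went to 11 with library totals, and those in peroxisomal oxidation were 9 to 14 with a library left out.

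Signs turned for HADHB (0.0395 with upper-quartile factors, 0.19 with library totals, 0.11 with each FPKM fit, and from -0.0798 to 0.0153 with a library left out, the latter without sh-ctrl replicate 3), PLIN3 (0.0282 with upper-quartile factors, 0.18 with library totals, 0.17 and 0.18 with FPKM), FOXA1 (0.0073 with upper-quartile factors, 0.16 with library totals, 0.14 and 0.15 with FPKM), and, with library totals, PDK2 (0.0046) and ACAT1 (0.0445). The medians of the ketone body list (0.14) and the pyruvate dehydrogenase list (0.08) were above 0 with library totals. These scalings differ by the shift in the median of all genes. Over 52 named genes, 721 of 772 values kept direction and side of the threshold, 19 lost the call, 17 gained it and 15 turned. With the replicate block 8607 genes were called, against 8548 without it, and 6 of the 7 genes, so the block moved no count of calls by over 1.5 times. At 3 libraries a group, PDK4 in sh-ctrl rests on 9 counts.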

Other observations

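A list of hypoxia genes held 12 tested genes, with PLIN2 and PDK1 among them. It also held the factors HIF1A and EPAS1 themselves, with log2 fold changes of -0.33 and -0.44. Of the 12 genes 11 were called lower, beside 34.7% of all tested genes. Their median log2 fold change was -0.78, beside 0.00 over all tested genes. The largest changes were those of NDUFA4L2 (-3.87), a mitochondrial protein induced in low oxygen, CA9 (-3.75), a carbonic anhydrase of the cell surface, and VEGFA (-1.39), the endothelial growth factor. NDUFA4L2 had 37, 41 and 54 counts with sh-ctrl and 2, 5 and 3 counts with sh-KIF11. CA9 had 135, 120 and 125 counts with sh-ctrl and 12, 12 and 8 counts with sh-KIF11. Both, and ANGPTL4 of the same list, passed the filter on low counts through the sh-ctrl libraries alone. All of them are counted among the 11 lower calls. CA9 went from 3.77 to 0.292 FPKM on average. ADM was not called, with a log2 fold change of -0.21 (adjusted p = 0.115).

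Both pathway terms taken from the deposited annotation, which share genes with the hand-written lists, held more lower than higher calls. Over all tested genes 34.7% were called lower and 34.4% higher. Fatty acid degradation had 34 of 44 genes tested, with 23 called lower and 8 higher and a median of -0.34, and ACAT2, the cytosolic thiolase of cholesterol synthesis, had the largest change (-1.15). PPAR signaling had 51 of 73 genes tested once FABP1 was left out, with 31 called lower and 13 higher and a median of -0.39. Among its lower genes, SCD, the stearoyl-CoA desaturase, went from 638 to 257 FPKM (log2 fold change -1.49) and APOC3, an apolipoprotein of triglyceride-rich particles, from 133.7 to 37.7 FPKM (-1.96). MMP1, a collagenase, was at 1, 0 and 1 counts in sh-ctrl and 33, 43 and 32 counts in sh-KIF11. It passed the filter on low counts through the sh-KIF11 libraries alone, so its place among the 13 higher calls follows from the filter. Some of the lower genes, ANGPTL4 and PLIN5 among them, passed it through the sh-ctrl libraries alone.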
